A study of Rattus norvegicus with 13 samples.

Results

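The 26 probe sets described here belong to 10 genes of microtubule-associated proteins, *Map1a*, *Map1b*, *Map2*, *Mapt*, *Map4*, *Map6*, *Dcx*, *Dclk1*, *Mapre1* and *Mapre3*. They are all probe sets of the array whose single annotated symbol is one of these, among 31099 probe sets and 14217 genes with such a symbol. *Map1a* has 1 probe set, *Dclk1* has 4, and the other genes have 2 or 3. The arrays came from rat cortical neurons grown in a compartmentalised microfluidic platform, whose channels let axons, but not cell bodies, reach a separate chamber. After 13 days in culture, 3 arrays were made from regenerating axons, axotomised on day 11 and left to regrow for 2 days, 3 from uncut neurons of the neuronal compartment and 7 from uncut axons. No group carried a transgene or drug by the labels, each array held RNA pooled from 3 platforms, and the RNA was amplified in 2 rounds before labelling. Whether arrays of the same group stem from different cultures is not labelled, and p-values then measure only the spread between these samples, which may be technical.

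Microtubules are polarised polymers of tubulin that form the tracks for transport in axons and dendrites, and microtubule-associated proteins bind, stabilise, bundle or cap them. In mature neurons the MAP2 protein is found mainly in dendrites and cell bodies, whereas tau, the product of *Mapt*, is found mainly in axons. Messenger RNA for some of these proteins, *Map2* in dendrites and *Mapt* and *Map1b* in axons among them, is known to be carried away from the cell body.

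Each deposited value is a linear ratio and not a signal, so levels of different genes cannot be compared and presence in axons cannot be read from it. Uninjured arrays 1 to 3 have a median ratio of 1 in every row (within 0.0001), as have arrays 4 to 6, and array 7 is 1 throughout, which leaves 6 uninjured arrays with a measurement. The other arrays were taken to be divided by the level in uninjured axons, which the labels do not state, and every direction against uninjured axons rests on that. Differences are of log2 ratios, with the standard error (SE) of limma, a linear model whose variances are moderated over all probe sets. Against uninjured axons the reference was counted as 1 array. A probe set is said to have passed when its p-value, adjusted by Benjamini and Hochberg over 31042 probe sets that are not controls, lay under 0.05. The culture batch of the regenerating and neuron arrays is not labelled, so its part was not tested.

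Most of these genes read far higher in neurons than in uninjured axons. Of the 26 probe sets, 17 passed as higher in neurons, from 9 of the 10 genes, against 28.4% of all probe sets, and 2 passed as lower, against 27.5%. The median difference of the members was log2 3.14 and that of all probe sets was log2 -0.07. In 18 members the 3 neuron arrays lay above the 6 uninjured arrays, as in 33.1% of all probe sets. In 2 members they lay below, as in 36.8%. *Mapt*, *Map1b*, *Dclk1* and *Mapre1* each had at least 2 probe sets 12.2-fold or more higher in neurons, whereas no probe set of *Map1a*, *Map4* or *Map6* exceeded 5.19-fold.

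**Figure D1:**
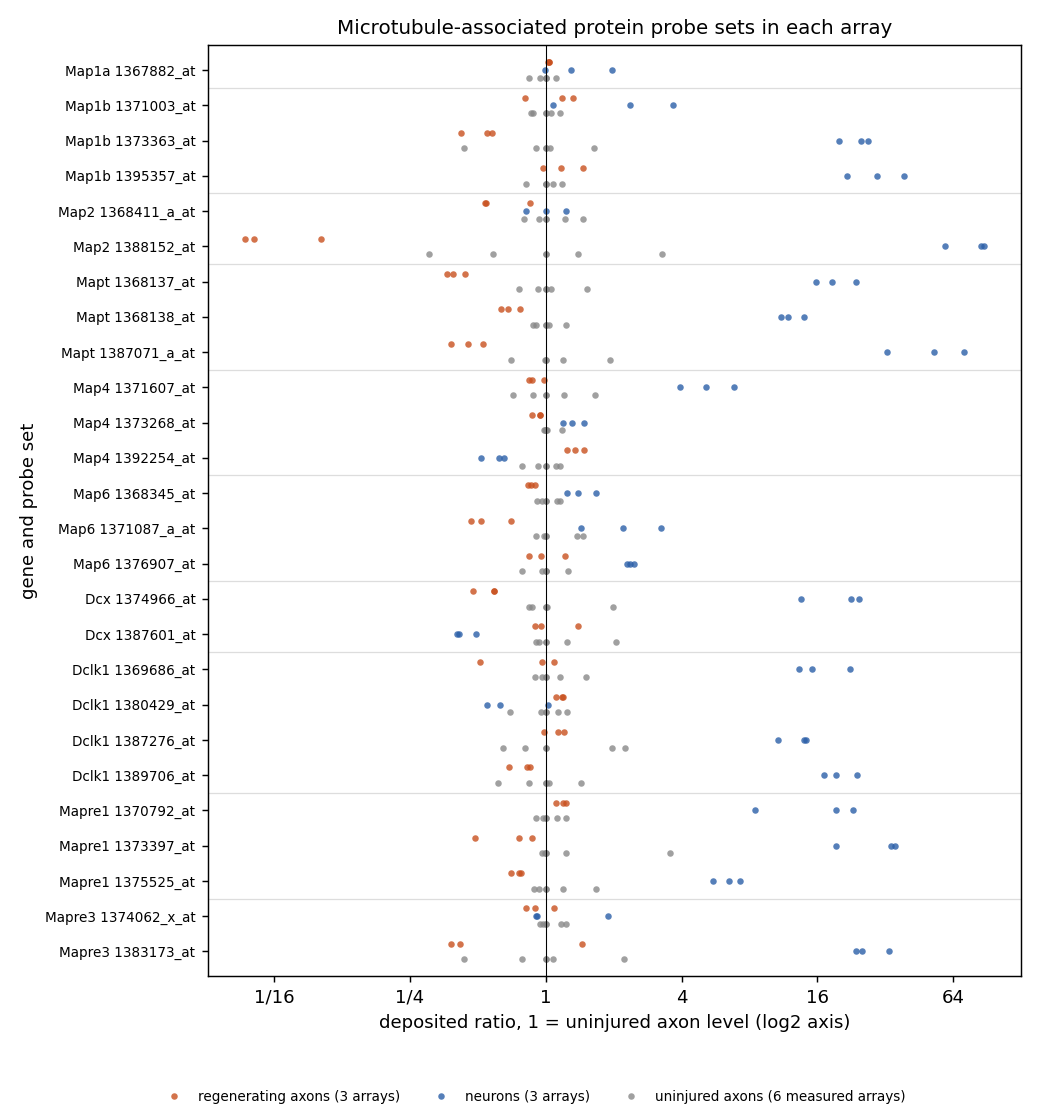
Deposited ratio of each probe set (rows, grouped by gene) in every array, on a log2 axis where 1 is the uninjured axon level. Each row shows 3 regenerating arrays, then 3 neuron arrays, then 6 uninjured arrays. *Map2* probe set 1388152_at spans the widest range, and *Dcx*, *Map4* and *Dclk1* have probe sets with neuron means on both sides of 1.

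*Map2*, the dendritic marker of the family, gave the widest contrast of all members through 1388152_at, which read 0.101, 0.0465 and 0.0512 times the reference in regenerating axons. The neuron arrays read 87.3, 58.8 and 85.0, and the uninjured arrays lay between 0.305 and 3.27. The 3 groups do not overlap, and the uninjured arrays alone span 10.7-fold, the widest range among the 26 members. Neurons were 75.8-fold higher than uninjured axons (log2 6.24 ± 0.93 SE, n = 3 neuron arrays, limma adjusted p = 0.000493), which placed this probe set 20th from the top of 31042. Its difference between regenerating axons and neurons, log2 -10.25 ± 0.31, was the lowest of all 31042 (limma adjusted p = 2.08e-07), a gap of 1220-fold if both groups were divided by the same level. Over the alternatives this difference ranged from log2 -10.60 to -8.85. The second *Map2* probe set, 1368411_a_at, behaved otherwise. It read 1.01, 0.820 and 1.23 in neurons, within the uninjured range of 0.799 to 1.47 (log2 0.01 ± 0.33, limma adjusted p = 0.986).

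*Mapt* encodes tau, which binds along axonal microtubules, and all 3 of its probe sets passed as higher in neurons. Probe set 1387071_a_at read 52.6, 32.4 and 71.3 in neurons, against 0.705 to 1.94 in uninjured arrays (log2 5.63 ± 0.52, limma adjusted p = 3.06e-05). The values of 1368137_at were 23.7, 15.8 and 18.5 in neurons, against 0.761 to 1.52 in uninjured axons, a 19.1-fold difference. Probe set 1368138_at read 14.0, 11.0 and 11.8 in neurons and 0.875 to 1.23 in uninjured arrays, a 12.2-fold difference. No neuron array came near the uninjured range for any of the 3, so the *Mapt* probe sets differ in size and not in direction.

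*Map1b* and *Map1a* encode large scaffold proteins of the axon and, for MAP1A, mainly of mature dendrites and axons. *Map1b* probe set 1395357_at read 29.4, 21.7 and 38.6 in neurons, against 0.821 to 1.18 in uninjured arrays (log2 4.86 ± 0.31, limma adjusted p = 4.98e-06). Its 1373363_at read 24.9, 19.9 and 26.8 in neurons, against 0.436 to 1.63 (log2 4.57 ± 0.54). The remaining one, 1371003_at, read 2.37, 1.08 and 3.67 in neurons, against 0.864 to 1.16, and did not pass (log2 1.08 ± 0.51, limma adjusted p = 0.0972). Its neuron array 2 lies inside the uninjured range, and without that array it passed (log2 1.56, limma adjusted p = 0.00162). *Map1a* read 1.29, 0.992 and 1.96 in neurons and 0.844 to 1.12 in uninjured axons. Those groups overlap, and the difference of log2 0.44 ± 0.33 did not pass (limma adjusted p = 0.267).

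Doublecortin, the product of *Dcx*, and the doublecortin-like kinase of *Dclk1* bind microtubules of migrating and growing neurons. *Dcx* probe set 1374966_at read 24.5, 13.6 and 22.5 in neurons, against 0.843 to 1.98 in uninjured arrays (log2 4.29 ± 0.45, limma adjusted p = 6.46e-05). The other, 1387601_at, read 0.490, 0.412 and 0.404 in neurons, against 0.904 to 2.04, and passed in the opposite direction (log2 -1.20 ± 0.40, limma adjusted p = 0.0271). Its call is lost without neuron array 3 (log2 -1.15, limma adjusted p = 0.0563). Of the 4 *Dclk1* probe sets, 3 were higher in neurons. Probe set 1389706_at read 17.1, 19.4 and 23.9, and 1369686_at read 15.2, 13.2 and 22.3, against uninjured ranges of 0.616 to 1.43 and 0.895 to 1.51. Probe set 1387276_at read 14.3, 10.7 and 14.0 in neurons, against 0.647 to 2.24. All 3 lie well clear of the uninjured arrays, with differences between log2 3.69 ± 0.62 and 4.32 ± 0.36. The fourth, 1380429_at, read 0.550, 1.03 and 0.626 in neurons and 0.696 to 1.24 in uninjured arrays, and did not pass (log2 -0.50 ± 0.37).

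*Mapre1* and *Mapre3* encode the end-binding proteins EB1 and EB3, which track growing microtubule plus ends and recruit other proteins there. *Mapre1* passed as higher in neurons with all 3 probe sets. Probe set 1373397_at read 35.2, 19.3 and 34.0 in neurons, against 0.965 to 3.54 in uninjured arrays (log2 4.83 ± 0.64). For 1370792_at the neuron values were 19.4, 8.47 and 23.0, against 0.909 to 1.23, and for 1375525_at they were 6.47, 5.52 and 7.25, against 0.883 to 1.67. Neuron array 2 was the lowest for each of them and still above every uninjured array. *Mapre3* probe set 1383173_at read 25.3, 33.4 and 23.6 in neurons, against 0.436 to 2.21 (log2 4.76 ± 0.60, limma adjusted p = 0.000179). The other, 1374062_x_at, read 0.916, 0.906 and 1.89, against 0.948 to 1.23, and did not pass (log2 0.22 ± 0.38). The ending x marks probes that the array's maker lists as shared with other sequences, so this probe set may read more than *Mapre3*. Whether it does was not tested.

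*Map4*, which encodes a microtubule stabiliser made in most cell types, and *Map6*, whose product protects microtubules from cold, stayed at 5.19-fold or less between neurons and uninjured axons. *Map4* probe set 1371607_at read 5.16, 3.94 and 6.85 in neurons, against 0.714 to 1.65 in uninjured arrays (log2 2.37 ± 0.43, limma adjusted p = 0.00155). Probe set 1392254_at went the other way, with 0.622, 0.655 and 0.519 in neurons, against 0.787 to 1.16 (log2 -0.75 ± 0.25, limma adjusted p = 0.0271). That call is lost without neuron array 3 (limma adjusted p = 0.0598), and without that array no member passes as lower in neurons. The remaining one, 1373268_at, read 1.31, 1.20 and 1.47, against 0.983 to 1.18, and did not pass although its groups are apart (log2 0.40 ± 0.20). *Map6* was higher in neurons by 1376907_at, at 2.47, 2.30 and 2.36 against 0.783 to 1.26 (log2 1.25 ± 0.23, limma adjusted p = 0.00153). Its 1371087_a_at passed narrowly with overlapping groups (2.20, 1.43 and 3.23 in neurons, against 0.905 to 1.46, log2 1.12 ± 0.42). That call is lost in 7 of 17 alternatives, among them leaving out neuron array 1 or 3 or uninjured array 1, 2, 3 or 5, and over all 17 the limma adjusted p-values ran from 0.000704 to 0.116. The other *Map6* probe set, 1368345_at, at 1.40, 1.25 and 1.67 against 0.919 to 1.16, did not pass (log2 0.51 ± 0.23, limma adjusted p = 0.0769) but did without neuron array 2 (log2 0.61, limma adjusted p = 0.0371).

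Disagreement between probe sets of a gene was the rule in neurons. In 8 of the 9 genes with several probe sets, the highest and the lowest mean lay over 1 log2 unit apart, against 57.6% of 4525 such genes on the array. Such a gap can widen with the number of probe sets, and the genes compared were not matched for that number. The gap was 6.24 for *Map2* (6.11 to 6.44 over the arrays), 5.50 for *Dcx*, 4.82 for *Dclk1*, 4.55 for *Mapre3*, 3.78 for *Map1b*, 3.12 for *Map4*, 2.16 for *Mapre1* and 2.02 for *Mapt*. *Map6*, at 0.74, was the exception. *Dcx* and *Map4* have probe sets that passed in opposite directions. How often this happens among all genes of the array was not counted, so it is not shown to be particular to these genes. The gaps do not say which probe set reads the gene's full messenger RNA. Control probe sets for the 3′ and 5′ ends of 1 transcript differ as well in neurons. The 3′ minus 5′ difference was log2 1.95 to 2.70 for hexokinase, -2.22 to -1.74 for GAPDH and 0.42 to 0.78 for beta-actin, against -0.35 to 0.48 over all 3 in uninjured arrays. Their part in the disagreement was not tested.

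Values below 1 in neurons are common on this array. Genes for smell, taste and pheromone receptors were taken to be mostly silent in the cortex, an assumption not tested here. Their 28 probe sets lay between log2 -1.61 and 0.20 in neurons relative to uninjured axons, and 19 passed as lower. The member probe sets below 1, of *Dcx*, *Map4* and *Dclk1*, lie inside that range. The transcripts added for hybridisation control had a median ratio of 0.285, 0.931 and 0.156 in the 3 neuron arrays, against 0.965 to 1.21 in the 6 measured uninjured arrays. Neuron array 2 had the lowest value in 21 of 26 members, and in 43.7% of all probe sets. The part of these controls in the members' values was not tested.

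After axotomy no member passed. Between regenerating and uninjured axons, 0 of 26 probe sets were called in limma (0.335% of all probe sets were lower and 0.00966% higher), and 5 had an unadjusted p under 0.05, as did 10.9% of all. The members' median difference was log2 -0.26, beside 0.03 for all probe sets, and 18 of 26 had a mean below 0, against 45.7% of all. In 10 members, from 6 genes, all 3 regenerating arrays lay below the 6 uninjured arrays, as in 10.9% of all probe sets. In 1 member they lay above, as in 10.3%. Error assigned to the unmeasured reference enters each of these tests, and with the reference taken as exact 8 members pass as lower and 1 as higher, with 7246 calls over the array in place of 107.

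**Figure D2:**
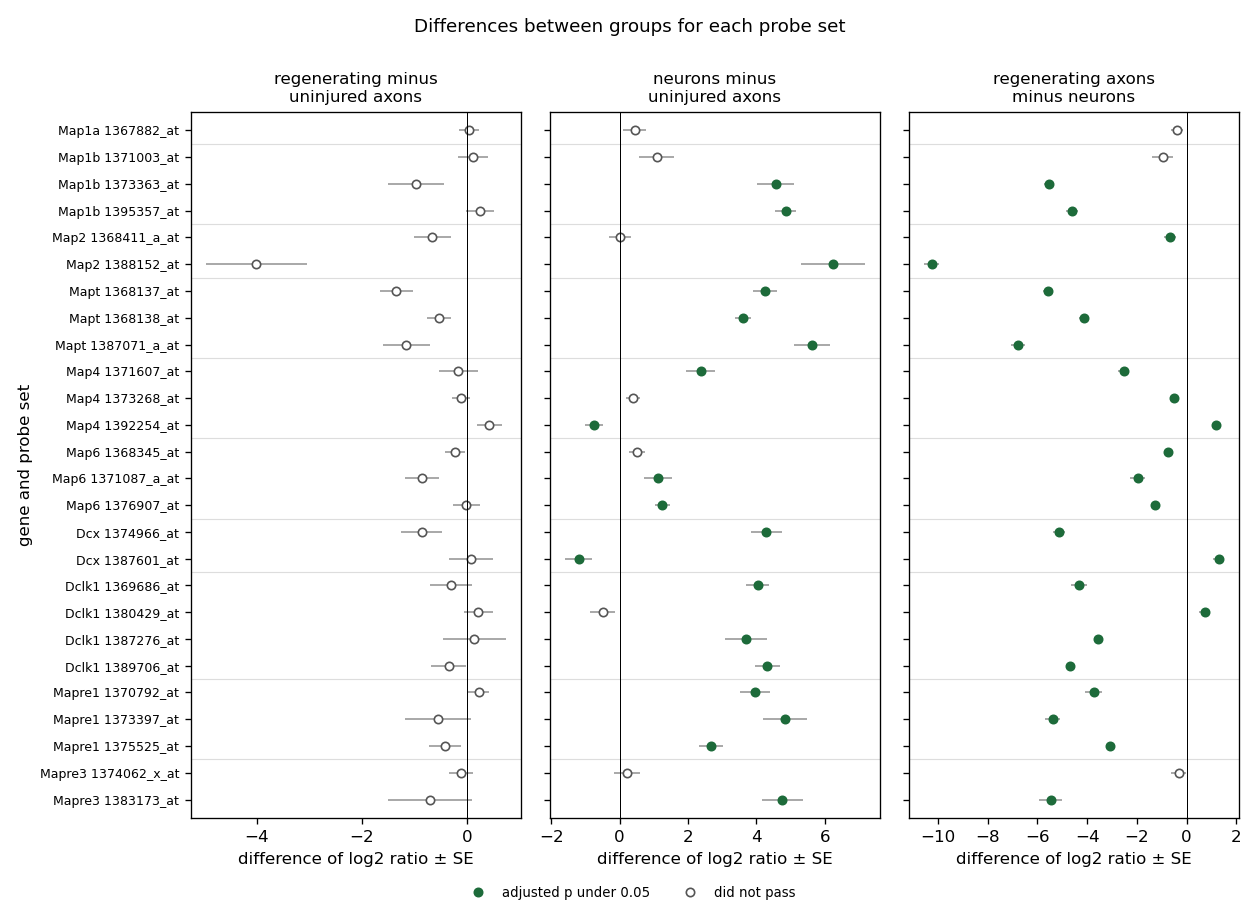
Difference of log2 ratio for each probe set with the limma SE, in 3 panels: regenerating minus uninjured axons, neurons minus uninjured axons, and regenerating axons minus neurons. Filled points passed an adjusted p of 0.05; the left panel has none, the middle panel has 19 and the right panel has 23.

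*Map2* and *Mapt* gave the lowest values among the members in regenerating axons. *Map2* 1388152_at, at 0.101, 0.0465 and 0.0512 in regenerating axons against 0.305 to 3.27 in uninjured axons, was 16.1-fold lower (log2 -4.01 ± 0.96) and stood 69th from the bottom of 31042. Over the alternatives its difference ranged from log2 -4.36 to -2.74. It missed the threshold (limma adjusted p = 0.124, 0.000529 to 0.465 over the alternatives), and with the spread of the 3 regenerating arrays alone it passed (limma adjusted p = 0.0484). Its other probe set read 0.538, 0.855 and 0.546 in regenerating axons, against 0.799 to 1.47 (log2 -0.66 ± 0.35). The *Mapt* probe sets agree in direction. Probe set 1368137_at read 0.366, 0.437 and 0.387 in regenerating axons, against 0.761 to 1.52 (log2 -1.34 ± 0.31, limma adjusted p = 0.118). Probe set 1387071_a_at read 0.528, 0.453 and 0.381, against 0.705 to 1.94 (log2 -1.15 ± 0.44). The smallest difference was that of 1368138_at, at 0.769, 0.635 and 0.683 in regenerating axons, against 0.875 to 1.23 (log2 -0.53 ± 0.22). In all 3 the regenerating arrays lie below every uninjured array, and none passed. The 3′ minus 5′ difference of the control probe sets in regenerating arrays was log2 0.25 to 0.73 for hexokinase, -1.14 to -0.48 for GAPDH and -0.63 to 0.02 for beta-actin, against -0.35 to 0.48 over all 3 in uninjured arrays. The hybridisation controls had a median ratio of 1.17, 1.44 and 1.55 in the 3 regenerating arrays, against 0.965 to 1.21 in the 6 measured uninjured arrays. The part of these controls in the values of regenerating axons was not tested.

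The other members lay between log2 -0.97 and 0.43 in regenerating relative to uninjured axons. *Dcx* 1374966_at read 0.592, 0.476 and 0.592 in regenerating arrays, below the uninjured range of 0.843 to 1.98 (log2 -0.86 ± 0.39), whereas its other probe set, at 0.892, 0.957 and 1.39, lay within the range of 0.904 to 2.04 apart from its lowest array. *Map6* 1371087_a_at read 0.465, 0.519 and 0.704, below the range of 0.905 to 1.46 (log2 -0.85 ± 0.32). *Map1b* 1373363_at read 0.577, 0.421 and 0.547 (log2 -0.97 ± 0.54), overlapping an uninjured range of 0.436 to 1.63. The other *Map1b* probe sets read 0.811 to 1.47 in regenerating axons, so the gene's probe sets differ here too. *Map4* 1392254_at was the member that lay above all uninjured arrays, at 1.47, 1.35 and 1.24 against 0.787 to 1.16 (log2 0.43 ± 0.23, limma adjusted p = 0.556). *Mapre3* 1383173_at was split, with 0.417 and 0.380 in arrays 1 and 2 and 1.44 in array 3. *Mapre1* 1375525_at and 1373397_at read 0.704 to 0.779 and 0.487 to 0.866, below their uninjured ranges. *Mapre1* 1370792_at at 1.11 to 1.23, *Map1a* at 1.02 to 1.04 and the 4 *Dclk1* probe sets at 0.512 to 1.20 overlap theirs. The remaining probe sets, 2 each of *Map4* and *Map6* and 1 of *Mapre3*, read 0.815 to 1.22, with *Map4* 1373268_at (0.942, 0.943 and 0.873) and *Map6* 1368345_at (0.831, 0.893 and 0.861) below all uninjured arrays.

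**Figure D3:**
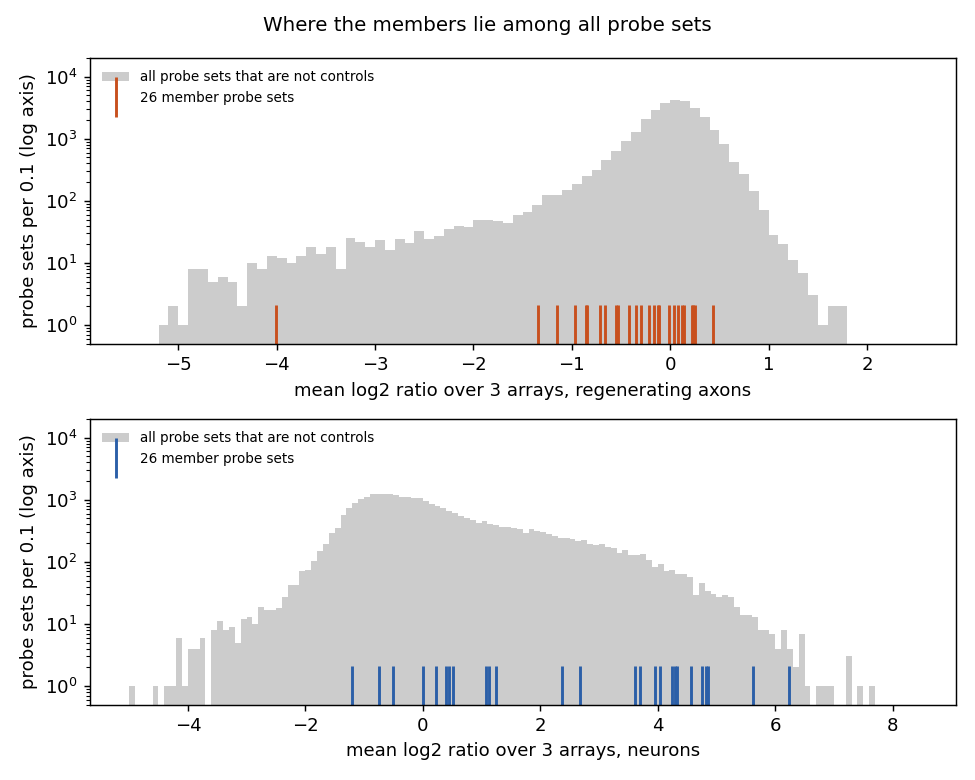
Histograms of the mean log2 ratio of 31042 probe sets in 3 regenerating arrays (upper panel) and 3 neuron arrays (lower panel), with the count on a log axis and the 26 members as vertical ticks. In the upper panel *Map2* 1388152_at stands apart at -4.01 while the others lie between -1.34 and 0.43, and in the lower panel the members run from -1.20 to 6.24.

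Regenerating axons were set against neurons directly, which needs the same denominator in both groups. By this contrast 20 members were lower in regenerating axons, against 35.2% of all probe sets, and 3 were higher, against 37.3%. After *Map2* 1388152_at came *Mapt* 1387071_a_at at log2 -6.78 ± 0.29, *Mapt* 1368137_at at -5.59 ± 0.19 and *Map1b* 1373363_at at -5.54 ± 0.19. *Mapre3* 1383173_at (-5.47 ± 0.47), *Mapre1* 1373397_at (-5.38 ± 0.30) and *Dcx* 1374966_at (-5.15 ± 0.24) followed, with limma adjusted p-values of 2.17e-05 or below. The members higher in regenerating axons were *Dcx* 1387601_at (1.29 ± 0.21), *Map4* 1392254_at (1.18 ± 0.16) and *Dclk1* 1380429_at (0.72 ± 0.24, limma adjusted p = 0.0248). The last missed the threshold when any 1 array other than neuron array 2 was left out (limma adjusted p = 0.0564 to 0.0973). Among the lower members, *Map2* 1368411_a_at (-0.67 ± 0.24, limma adjusted p = 0.0325) missed it without regenerating or neuron array 1 or 3 (limma adjusted p = 0.0814 to 0.108). *Map1a* and *Map1b* 1371003_at, which did not pass, were lower in regenerating axons without neuron array 2 (log2 -0.62 and -1.45, limma adjusted p = 0.0211 and 0.00111).

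Other microtubule regulators, grouped by role, were mixed in neurons, and their counts stand beside 28.4% higher and 27.5% lower over all probe sets. Proteins of microtubule plus and minus ends, 23 genes with 43 probe sets, had 24 higher and 5 lower in neurons than in uninjured axons (median log2 1.04). They were led by *Tacc2* (log2 5.12 ± 0.73) and by *Clasp2*, which stabilises plus ends (4.98 ± 0.24), with *Tacc3* (-1.52 ± 0.31) at the other end. Kinases and phosphatases that act on these proteins had 28 of 42 probe sets higher and 5 lower (median 1.70), with *Camk2b* at 4.78 ± 0.25, the tyrosine kinase gene *Fyn* at 4.24 ± 0.28, and the tau kinase gene *Mark4* at -1.17 ± 0.27. Severing and depolymerising proteins had 6 of 11 higher and 1 lower (median 2.50), with the depolymerising kinesin gene *Kif2a* at 4.18 ± 0.35. Enzymes that modify tubulin had 14 of 29 higher and 6 lower (median 0.19), with the deacetylase gene *Sirt2* at 4.08 ± 0.29 and *Ttll5* at -1.37 ± 0.18. Other structural proteins of microtubules had 10 of 32 higher, close to the share of the array, and 5 lower (median 0.34), led by *Eml4* (3.08 ± 0.34). *Map7d1* has probe sets on both sides, at 2.58 ± 0.30 and -1.13 ± 0.32. None of the 157 probe sets of these 5 lists passed between regenerating and uninjured axons (0.335% of all probe sets were lower and 0.00966% higher), where the list medians lay between 0.00 and 0.32.

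Marker genes of cell types differed between neurons and uninjured axons too, beside the same shares of 28.4% higher and 27.5% lower over all probe sets. Neuron markers passed as higher in 15 of 18 probe sets (median log2 2.50), with *Stmn2* 1370041_at at 5.93 ± 0.84, and 1 probe set of *Tubb3* as lower (-1.25 ± 0.22). Astrocyte markers passed as higher in 15 of 21 and as lower in 2 (median 3.14), with *Sparcl1* at 6.55 ± 0.39 and *Gja1* at -1.03 ± 0.22. Oligodendrocyte markers passed as higher in 5 of 17 and as lower in 3 (median 0.15), with *Mbp* at 4.64 ± 0.25 and *Opalin* at -1.52 ± 0.28. Dividing cell markers had 2 of 10 higher and 1 lower. Microglial markers were lower in 9 of 12 and higher in none (log2 -1.43 to -0.36), and fibroblast and endothelial markers were lower in 5 of 10 and higher in 0. No marker probe set passed in regenerating axons, where the neuron list had a median of log2 -0.25 (range -4.48 to 0.37). The medians there were -0.19 for astrocyte, -0.03 for oligodendrocyte, 0.35 for microglial, 0.04 for dividing cell and 0.04 for fibroblast and endothelial markers, and 0.25 for the smell, taste and pheromone receptors. The part of glia in the members' values was not tested, and in such bulk samples fewer cells of a type and less RNA per cell cannot be told apart.

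The promoters of 7 member genes were found in the RefSeq table for the GRCr8 assembly, and those of *Map1b* and *Mapre1*, both higher in neurons by most of their probe sets, are shown as the 250 bases before the start listed with the promoter. That start need not be the outer end of the gene. The *Mapre1* stretch runs past the gene's listed start at 162679020. The stretches of *Dclk1*, *Map1a*, *Mapre3*, *Map2* and *Dcx* lie wholly inside the listed gene. Capitals mark the letters TATAAA or GGGCGG and their reverse complements, the TATA and GC box letters, searched on both strands with overlapping matches kept.
Map1b chr2:32644472-32644721, minus strand: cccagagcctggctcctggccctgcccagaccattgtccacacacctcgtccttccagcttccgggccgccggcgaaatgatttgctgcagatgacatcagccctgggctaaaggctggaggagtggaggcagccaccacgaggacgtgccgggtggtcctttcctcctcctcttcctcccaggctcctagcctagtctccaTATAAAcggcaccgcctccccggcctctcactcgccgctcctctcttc
Mapre1 chr3:162678820-162679069, plus strand: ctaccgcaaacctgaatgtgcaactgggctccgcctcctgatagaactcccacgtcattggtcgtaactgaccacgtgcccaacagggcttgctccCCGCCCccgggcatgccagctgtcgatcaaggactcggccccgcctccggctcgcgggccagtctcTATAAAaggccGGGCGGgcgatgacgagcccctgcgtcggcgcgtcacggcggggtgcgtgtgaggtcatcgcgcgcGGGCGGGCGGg
TATAAA occurs in 3 of the 7 member promoters, in *Map1b* with its first base at -48 and in *Mapre1* at -88, and in 12.9% of 33469 promoters of the same length. GGGCGG occurs in 3 of 7, with 4 matches in *Mapre1* and 0 in *Map1b*, and in 30.5% of all. The 2 promoters shown thus share TATAAA and differ in GGGCGG. That of *Dclk1*, also higher in neurons by most of its probe sets, holds 0 matches of TATAAA and 1 of GGGCGG. A match is a description of the letters and not of a bound site.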

How the data were processed

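GeneChip arrays measured the RNA of rat cortical cultures, 3 of regenerating axons, 3 of neurons and 7 of uninjured axons, grouped by their titles. The deposited values are linear ratios per probe set. Per the submitters' processing notes RMA was used, with neither version nor settings, and the step from RMA to ratios is not given in the sources used here. Array signals were not used here, so no probe set could be tested against background, and the number of arrays limits the precision.

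Symbols came from the array annotation (20826 probe sets with 1 symbol, 436 with several, 9780 with none) and were checked by identifier against GRCr8, where 20758 matched and none changed. Log2 ratios of 31042 probe sets were fitted with limma 3.58.1 in R 4.3.3, with a mean for each uninjured ratio set and array 7 as the reference. The fits were also run on simulated data with independent normal errors for each probe set. These data held no shifts between arrays or between transcript ends, so the fits were not tested under such shifts. The named probe sets are all 26 members and, of each wider list and marker list, up to 2 of the largest rises and falls that passed. *Apc* and *Ppp2cb* in the closing section fall outside this rule. Members and lists were chosen with earlier results of these data known. The 0.1 offset, other spreads, centring, gene means, a replicate block and arrays left out were tried as alternatives.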

Additional observations from a re-analysis of the deposited data

Results flagged for a closer look

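The 6 measured uninjured arrays were searched for a value set apart from the other 5 by Dixon's test on the ratio scale. It marked 6 of the 26 probe sets, and 21.4% of all 31042. The test's nominal rate of about 1 in 20 groups does not apply here, since each ratio set holds 1 array at exactly 1 in a row and the values are not independent. *Map2* 1388152_at read 3.27 in uninjured array 3, and *Mapre1* 1373397_at read 3.54 in uninjured array 5. In uninjured array 4, *Dcx* 1374966_at read 1.98, *Dcx* 1387601_at read 2.04 and *Mapre3* 1383173_at read 2.21. *Map4* 1373268_at read 1.18 in uninjured array 5. The causes were not tested.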

How the results depend on the processing

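For neurons against uninjured axons, the 17 higher member probe sets became 16 to 21 under the alternatives at probe set level. Calls in either direction over all probe sets ran there from 12914 to 24873, in place of 17343. The 21 and the 24873 both came with the reference taken as exact. As means of genes, 9 of 10 genes were higher and 0 lower, with 8520 of 14217 genes called in either direction. The 2 lower members became 3 with the reference taken as exact, 1 with the spread of the 3 arrays alone, and 0 to 2 when 1 array was left out. *Map2* 1368411_a_at and *Mapre3* 1374062_x_at, neither of which passed, both turned to -0.14 without neuron array 3 and reached 0.15 and 0.39 without another. For regenerating against uninjured axons, members lower numbered 8 and members higher 1 with the reference taken as exact, 1 lower with the spread of the 3 arrays alone, and 2 lower with the replicate block. The calls over all probe sets were 107, and became 0 with trend and robust options, 7246 with an exact reference, 50 with all groups in 1 fit, 668 with the replicate block, and 0 to 479 when 1 array was left out. Log2 values close to 0 changed sign when 1 regenerating array was left out, with ranges of -0.03 to 0.32 for *Map1b* 1371003_at, -0.16 to 0.11 for *Map6* 1376907_at (0.02 without array 2), -0.11 to 0.21 for *Dcx* 1387601_at and -0.51 to 0.04 for *Dclk1* 1369686_at. For regenerating axons against neurons, the gene means gave 9 lower and 0 higher in place of 20 and 3. In either direction 10723 of 14217 genes were called, in place of 22498 probe sets. *Mapre3* 1374062_x_at ranged from -0.50 to 0.03 when 1 array was left out. Genes with probe sets over 1 log2 unit apart in regenerating axons numbered 2 of 9, against 10.8% of 4525 such genes on the array. They were *Map2*, with a gap of 3.34, and *Map1b*, with 1.22. The count became 1 at a threshold of 2, and 2 to 4 when 1 array was left out. Genes with probe sets passing in opposite directions in neurons numbered 2, and 0 to 2 when 1 array was left out, with no count over the array to set beside them. Gene means pool probe sets of opposite sign, as in *Dcx* at log2 1.54 and *Map4* at 0.68 in neurons relative to uninjured axons, and fewer features are fitted. The causes of the changes under the alternatives, gene means included, were not tested. No label says whether arrays with the same number are paired. Their deviations correlated at -0.31 to 0.13, which with 3 arrays per group cannot show whether they share a culture. The block was tried as an alternative and is not a known pairing. Against uninjured axons the block fit used uninjured arrays 1 to 3 alone, with their mean as the reference. The effect of the block and that of the changed reference cannot be told apart in it. In the block fit *Map2* 1388152_at (log2 -4.32, limma adjusted p = 0.0381) and *Mapt* 1368137_at (log2 -1.33, limma adjusted p = 0.0248) passed as lower in regenerating axons.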

Other observations

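Among the wider lists, the lowest probe set in regenerating axons, picked after its values were seen, was 1376629_at of *Apc*, whose product links microtubule plus ends to signalling. It read 0.302, 0.01 and 0.01 in regenerating axons, where 0.01 is the lowest value of the table, against 0.265 to 2.08 in uninjured axons, and did not pass (log2 -5.01 ± 1.67, limma adjusted p = 0.263). *Ppp2cb* 1367827_at, for a catalytic subunit of the phosphatase PP2A, read 0.196, 0.319 and 0.266 in regenerating axons and 9.21, 6.98 and 9.57 in neurons, against 0.376 to 1.74 in uninjured axons. Its difference between regenerating and uninjured axons was log2 -1.97 ± 0.65 (limma adjusted p = 0.253).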
